A study of Mus musculus with 6 samples.

Results

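Bone morphogenetic protein (BMP) signalling and the Id genes were followed at day 6 of brown adipocyte differentiation of the mouse mesenchymal line C3H-10T1/2, labelled as preadipocytes. The 10 genes were taken from a list of names: the ligand genes Bmp2, Bmp4, Bmp7 and Bmp8b, the receptor genes Bmpr1a and Bmpr2, the gene of the secreted antagonist gremlin, Grem1, and the target genes Id1, Id2 and Id3. They were 10 of the 22942 genes in the tables, and the rule that picks them uses no measured value. The list itself was made with earlier results of these data known. For each gene the RefSeq transcript with the highest mean value stood for the gene. All 10 had 1 transcript in the tables.

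The study compared 3 cultures given the solvent DMSO with 3 cultures given 4 uM of 611 (Cpd A), which inhibits LSD1, an enzyme that removes methyl groups from histones. All 6 cultures shared the differentiation protocol. For 72 h the medium with 10% serum held rosiglitazone and dexamethasone (1 uM each), T3 (1 nM), insulin (20 nM), indomethacin (125 uM) and isobutylmethylxanthine (0.5 mM), and the later medium kept the serum, insulin, T3 and rosiglitazone. The labels differ on whether DMSO or 611 was first given at seeding or 12 h after it. The series text calls the 3 cultures of a group biological replicates, and all are of 1 cell line. The p-values thus set the difference between groups against the spread between these cultures, and do not reach other lines. No BMP protein is named among the additions.

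BMP ligands bind complexes of type I and type II receptor kinases, which phosphorylate the proteins of Smad1, Smad5 and Smad9. These join the protein of Smad4 and switch on targets, of which the Id genes are the best known. Id proteins lack a DNA-binding region and hold E proteins, a class of helix-loop-helix transcription factors, away from DNA. In fat biology, BMP4 is known for committing mesenchymal cells to the fat lineage, BMP7 for promoting brown fat formation, and BMP8B for raising heat production in mature brown fat. Gremlin binds BMP2, BMP4 and BMP7 outside the cell and blocks them.

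Library totals recovered from the smallest values lay between 3.89e+07 and 4.12e+07. Across genes, libraries of 1 group correlated on the log scale at 0.9965 or more and libraries of different groups at 0.9791 or less. All 8 fat cell markers fell with 611, from a summed 28029 to 29310 RPKM in the DMSO libraries to 14470 to 16010, where RPKM is reads per kilobase of transcript, scaled to the library's total. Fabp4, at 21052 and 10946 RPKM, made up most of these sums. The falls of single markers ran from 1.17-fold for Cebpa to 2.05-fold for Lpl. Of 8 brown fat markers 6 could be tested and 5 fell, and Ucp1, the defining one, was listed at 0 in all 6 libraries. Of 6 progenitor markers 5 rose, from a summed 64.1 to 72.6 RPKM to between 217 and 230.5, and all 5 markers of dividing cells rose, from 51.0 to 53.0 RPKM to between 118 and 134. Smooth muscle and myofibroblast markers summed to 31.3 to 32.7 RPKM with DMSO and 67.1 to 76.3 with 611. Of the 4 tested 2 rose, Acta2 2.55-fold and Tagln 1.84-fold, and Acta2, at 22.1 and 56.4 RPKM, made up most of the sums. Myh11, at 0.419 ± 0.0336 and 0.328 ± 0.0397 RPKM, and Des, at 1.80 ± 0.156 and 1.58 ± 0.198, were lower on average and not called. Cnn1 was below the filter. By the test described below, 41.6% of all genes were called higher and 17.7% lower. Blood and endothelial cells were near absent by 3 markers, with Ptprc and Cdh5 listed at 0 throughout and Pecam1 at 0.129 RPKM or less. A further blood marker, Cd68, matched no entry, so the reading for blood cells rests on Ptprc. The part of these shifts in the results below was not tested, and in bulk RNA fewer cells of a type and less RNA per cell cannot be told apart. Kdm1a, the gene of LSD1, was at 9.09 ± 0.331 RPKM (SD, n = 3) with DMSO and 11.3 ± 0.331 with 611, and since 611 acts on the protein this does not check the labels.

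With 611 the cells had more mRNA of the ligand BMP4, of its antagonist gremlin, of the type II receptor and of Id1 and Id2. The transcripts of Id3 and of the type I receptor Bmpr1a did not pass the test. Bmp2, Bmp7 and Bmp8b were at or under the limit of detection in both groups. In numbers, 7 of the 10 genes passed the filter on low values, 5 of these were called higher and 0 lower (limma, Benjamini-Hochberg adjusted p below 0.05 over 13829 genes), beside 41.6% of all genes tested called higher, 17.7% lower and 59.4% in either direction. Scaling by median of ratios centres the typical gene near no change. The same 5 were then called higher, beside 28.5% of all genes higher and 28.6% lower. The median log2 fold change was 0.36 over the 7 and 0.10 over all genes tested. All log2 fold changes are 611 minus DMSO on the log2(RPKM + 1) scale, where changes of weakly expressed genes come out too small, while folds are ratios of mean RPKM.

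**Figure D1:**
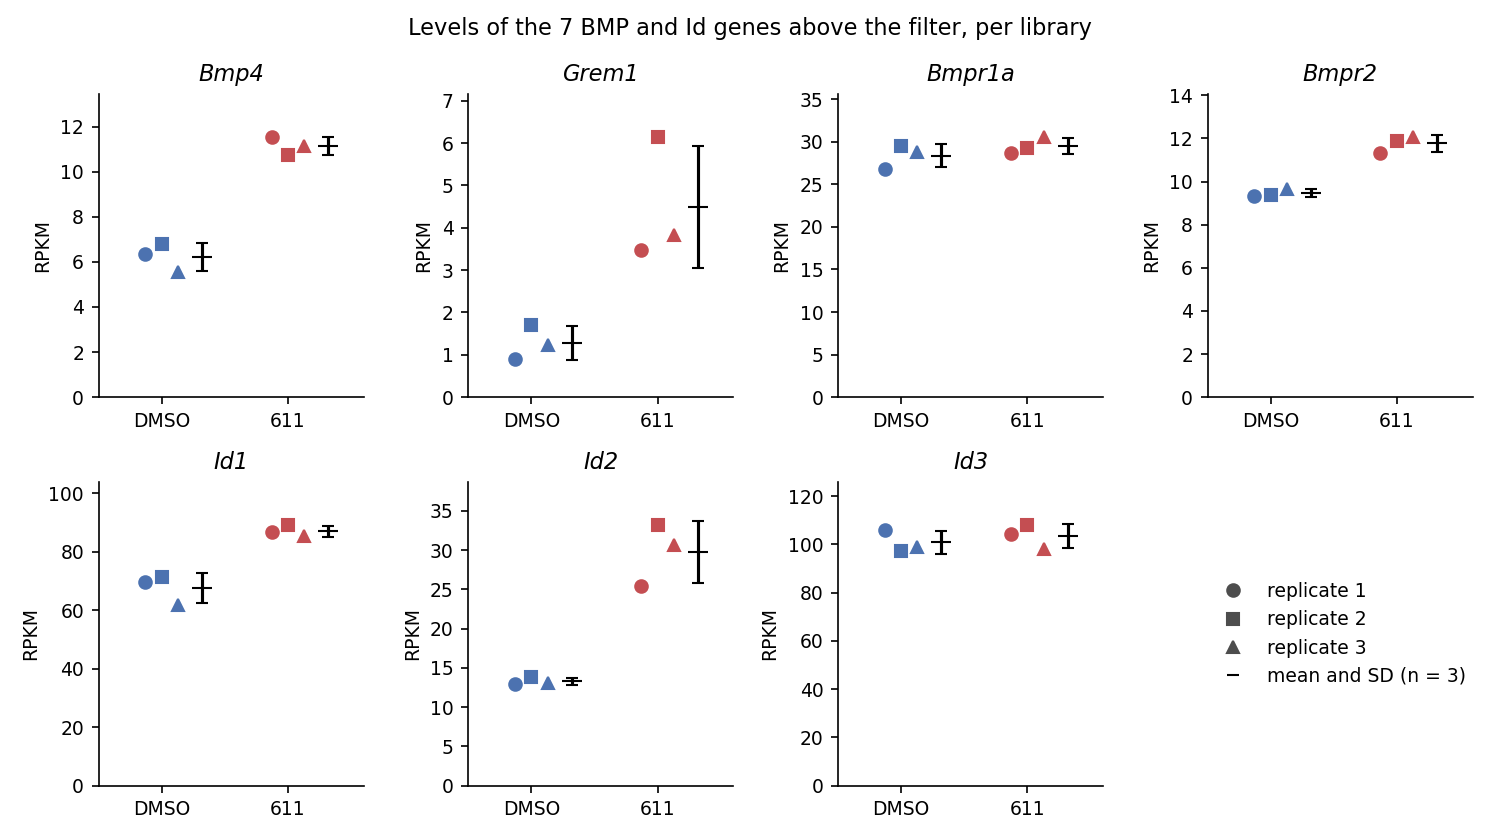
RPKM (y axis, from 0) of the 7 genes above the filter in the 3 DMSO (blue) and 3 611 (red) libraries, with a marker shape for each replicate number and the mean and SD of each group in black. The groups separate for Bmp4, Grem1, Bmpr2, Id1 and Id2 and overlap for Bmpr1a and Id3.

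The genes with the largest rises were Grem1, Id2 and Bmp4. Sequence from before their start sites is shown because these genes rose together, and so that the motif matches given next can be read in place. The sequences are RefSeq's on GRCm38.p6, a later build than the mm9 named for the tables, and run 5′ to 3′ toward the gene on its minus strand. Capitals mark matches to GGCGCC.

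Grem1, chr2:113758649-113758898, 250 bases: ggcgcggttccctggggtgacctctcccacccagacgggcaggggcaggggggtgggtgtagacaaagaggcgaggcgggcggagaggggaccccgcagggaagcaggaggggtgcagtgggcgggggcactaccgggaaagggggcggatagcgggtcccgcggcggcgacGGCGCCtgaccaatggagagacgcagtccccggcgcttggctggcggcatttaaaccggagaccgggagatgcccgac
Id2, chr12:25096254-25096342, the outer 89 bases of the window, which no annotated exon of the gene covers: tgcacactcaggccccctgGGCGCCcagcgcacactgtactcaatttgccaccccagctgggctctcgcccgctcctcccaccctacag
Bmp4, chr14:46390670-46390919, 250 bases: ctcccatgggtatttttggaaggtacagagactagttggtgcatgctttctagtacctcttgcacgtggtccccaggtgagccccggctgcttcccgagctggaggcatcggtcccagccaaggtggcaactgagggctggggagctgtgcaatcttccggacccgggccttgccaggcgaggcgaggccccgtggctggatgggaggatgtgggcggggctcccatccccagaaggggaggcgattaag

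The 250 bases before the start were searched on both strands for GGCGCC, a GC-rich element bound by BMP SMADs, for the palindromic SMAD box GTCTAGAC and for the SMAD element CAGACA. The promoter table held 7 of the 10 genes: Bmp4, Bmp8b, Bmpr1a, Bmpr2, Grem1, Id2 and Id3. Not all of these windows were free of annotated exons of the gene. In Bmpr2 and Id3 the outermost base already lay in such an exon. In Bmpr1a the outer 109 bases lay before the first exon met, and in Id2 the outer 89. The windows were 62.8% to 78.8% G and C, and the shares over all windows given next were not matched for this content. GGCGCC was in the windows of Grem1, Id2, Bmpr2 and Bmpr1a, 4 of 7, beside 9.59% of 32851 promoter windows, and its first base lay 78, 231, 105 and 198 bases before the start. It was not in the windows of Bmp4, Id3 or Bmp8b. Genes called higher and genes not called were thus found with and without it. CAGACA was in that of Bmp8b only, beside 17.1% of all windows, and GTCTAGAC was in none of the 7, beside 0.167%. No match overlapped another.

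Among the 4 ligand genes only Bmp4 gave a measurable level. Its RPKM was 6.33, 6.79 and 5.55 in DMSO replicates 1, 2 and 3 and 11.5, 10.8 and 11.1 in 611 replicates 1, 2 and 3. Every 611 library lay above every DMSO library, as for 45.8% of all genes tested, while 20.4% lay below in all 3. The mean went from 6.22 ± 0.627 to 11.1 ± 0.393 RPKM (SD, n = 3 each), 1.79-fold higher, with a log2 fold change of 0.75 ± 0.07 (SE; limma Benjamini-Hochberg adjusted p = 2.4e-05). After median-of-ratios scaling it was 0.62. Between about 457 and 972 reads per library stood behind these values. Gm15217 overlaps exonic sequence of Bmp4 on the opposite strand in the GENCODE annotation. The sources used here do not say whether strand was used in counting, so reads of such partners cannot be told apart.

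Bmp2 and Bmp7 were listed at 0 in all 6 libraries. A count of 3 reads, the limit that a count of 0 allows, would be 0.0205 to 0.0217 RPKM for Bmp2 and 0.0198 to 0.0210 RPKM for Bmp7. Bmp8b was at 0 in 5 libraries and at 0.0165 RPKM in 611 replicate 2, which is 2 reads, against a limit of 0.0248 to 0.0263 RPKM. Bmp8b also has a near-identical copy, Bmp8a, and overlaps Gm17244 and Ppie on the opposite strand, so its reads are uncertain. No difference between the groups was detectable in these genes at this depth, and no fold is given. These limits cover counting error only. None of 31 proteasome genes, which every cell uses, was listed at 0. Bmp4 therefore made up 100% of the summed RPKM of the 4 ligand genes in 5 libraries and 99.8% in 611 replicate 2. Of the other 11 ligand genes of the family 10 were at 0 or below the filter. Gdf5, a ligand of joint and cartilage formation, fell 1.52-fold, from 4.22 ± 0.438 to 2.79 ± 0.642 RPKM (limma Benjamini-Hochberg adjusted p = 0.0071).

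Grem1 showed the largest change of the 10 genes. It stood at 0.895, 1.70 and 1.22 RPKM in DMSO replicates 1, 2 and 3 and at 3.48, 6.15 and 3.83 in 611 replicates 1, 2 and 3. The groups did not overlap, and replicate 2 was the highest library in each. The mean went from 1.27 ± 0.407 to 4.49 ± 1.45 RPKM, 3.52-fold higher (log2 fold change 1.25 ± 0.18 SE, limma Benjamini-Hochberg adjusted p = 3.9e-04). Between libraries of the same replicate number the rise was 3.89-fold, 3.61-fold and 3.13-fold, closer together than the levels themselves. Of all genes tested, 1.48% had a larger log2 fold change. Grem1 rested on about 144 reads in its lowest library and 1050 in its highest.

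The antagonist was also set against its ligands within each library, a ratio that a single scaling factor per library does not move. RPKM of Grem1 over the summed RPKM of the 4 ligand genes was 0.141, 0.251 and 0.221 in the DMSO libraries and 0.302, 0.571 and 0.345 in the 611 libraries. Each 611 library was above each DMSO library. The mean ratio went from 0.204 ± 0.0565 to 0.406 ± 0.144 (SD, n = 3), a difference of 0.97 on the log2 scale (exact permutation test, two-sided, p = 0.1, the smallest that 3 against 3 can give, and 0.138 adjusted over 11 within-library measures). Ligand transcripts remained more abundant per length than those of the antagonist in all 6 libraries.

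Other secreted antagonists and modulators rose along with Grem1. Of 19 such genes 12 could be tested, 11 rose and 0 fell, beside 41.6% of all genes called higher. Their median log2 fold change was 0.53. Scaled by median of ratios, 9 of the 11 remained called, without Chrdl1 and Dand5, beside 28.5% of all genes. The median was then 0.44. With quantile normalization 7 were called, beside 3652 of all 13829 genes. Nbl1, a relative of gremlin that binds BMPs, rose 3.28-fold from 5.81 ± 1.20 to 19.1 ± 0.479 RPKM. Fstl1, a secreted follistatin-like protein, was by far the most abundant of the list and rose 3.08-fold from 174 ± 9.25 to 536 ± 45.6. Bmp1, which despite its name is a protease that processes procollagen and the antagonist chordin, rose 2.01-fold to 25.0 ± 0.518 (limma Benjamini-Hochberg adjusted p between 5.1e-07 for Fstl1 and 5.0e-06 for Nbl1). Without Fstl1 the list summed to 50.5 to 56.6 RPKM in the DMSO libraries and 92.7 to 98.3 in the 611 libraries. Not every antagonist followed. Chordin's own gene, Chrd, named after its values were seen as the 1 tested gene without a call, was at 1.52 ± 0.0641 and 1.57 ± 0.329 RPKM and was not called, and Nog, the gene of noggin, stayed below the filter with at most 0.0765 RPKM in any library.

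The receptor genes split. Bmpr2, the type II receptor, was at 9.35, 9.37 and 9.67 RPKM in the DMSO libraries and at 11.3, 11.9 and 12.1 in the 611 libraries. The groups did not overlap and the rise was small, 1.24-fold from 9.46 ± 0.182 to 11.8 ± 0.377 (log2 fold change 0.29 ± 0.04 SE, limma Benjamini-Hochberg adjusted p = 5.9e-04). It moved to 0.15 after median-of-ratios scaling (limma Benjamini-Hochberg adjusted p = 0.0171). Of all genes tested, 27.9% had a larger log2 fold change.

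Bmpr1a, the type I receptor, was at 26.8, 29.5 and 28.8 RPKM with DMSO and at 28.7, 29.3 and 30.6 with 611. The libraries of both groups interleaved. The means were 28.4 ± 1.39 and 29.5 ± 0.969 (log2 fold change 0.055, 95% interval -0.050 to 0.16, limma Benjamini-Hochberg adjusted p = 0.333), so on the RPKM + 1 scale the interval ran from 0.966 to 1.12 of the DMSO level. After median-of-ratios scaling the sign turned, at -0.091 (adjusted p = 0.0933). An antisense transcript, Gm17110, overlaps an exon of Bmpr1a. Bmpr2 relative to Bmpr1a within a library was 0.349, 0.318 and 0.336 with DMSO and 0.396, 0.406 and 0.395 with 611, again without overlap (exact permutation test, two-sided, p = 0.1, the smallest possible, and 0.138 adjusted over the 11 measures).

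Among the other receptors and coreceptors 7 of 10 could be tested, 5 rose and 0 fell. These 5 stayed called after median-of-ratios scaling. The share of all genes called higher was 41.6%, and 28.5% after that scaling. Acvr1, a further type I receptor for BMPs, rose 1.88-fold from 3.60 ± 0.213 to 6.78 ± 0.341 RPKM. Eng, the coreceptor endoglin, rose 3.12-fold from 1.21 ± 0.179 to 3.78 ± 0.157, and Rgmb, a BMP coreceptor, rose 1.46-fold to 5.54 ± 0.460 (limma Benjamini-Hochberg adjusted p between 4.2e-06 for Eng and 0.0011 for Rgmb). The 2 genes not called were the type II receptors Acvr2a and Acvr2b, named here after their values were seen. Acvr2a was at 3.38 ± 0.233 and 2.90 ± 0.230 RPKM and was not called (limma Benjamini-Hochberg adjusted p = 0.0646), although it was called lower after median-of-ratios scaling and with the replicate number as a block (limma Benjamini-Hochberg adjusted p = 0.0330). With quantile normalization Acvr2a and Acvr2b were called lower, beside 4282 of all 13829 genes. The same held with a trend on transcript length, GC content and level removed, a setting chosen after seeing the data, beside 4203 of all genes. Bmpr1b, another BMP type I receptor, was listed at 0 in all 6 libraries, where 3 reads would be 0.0136 to 0.0144 RPKM.

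**Figure D2:**
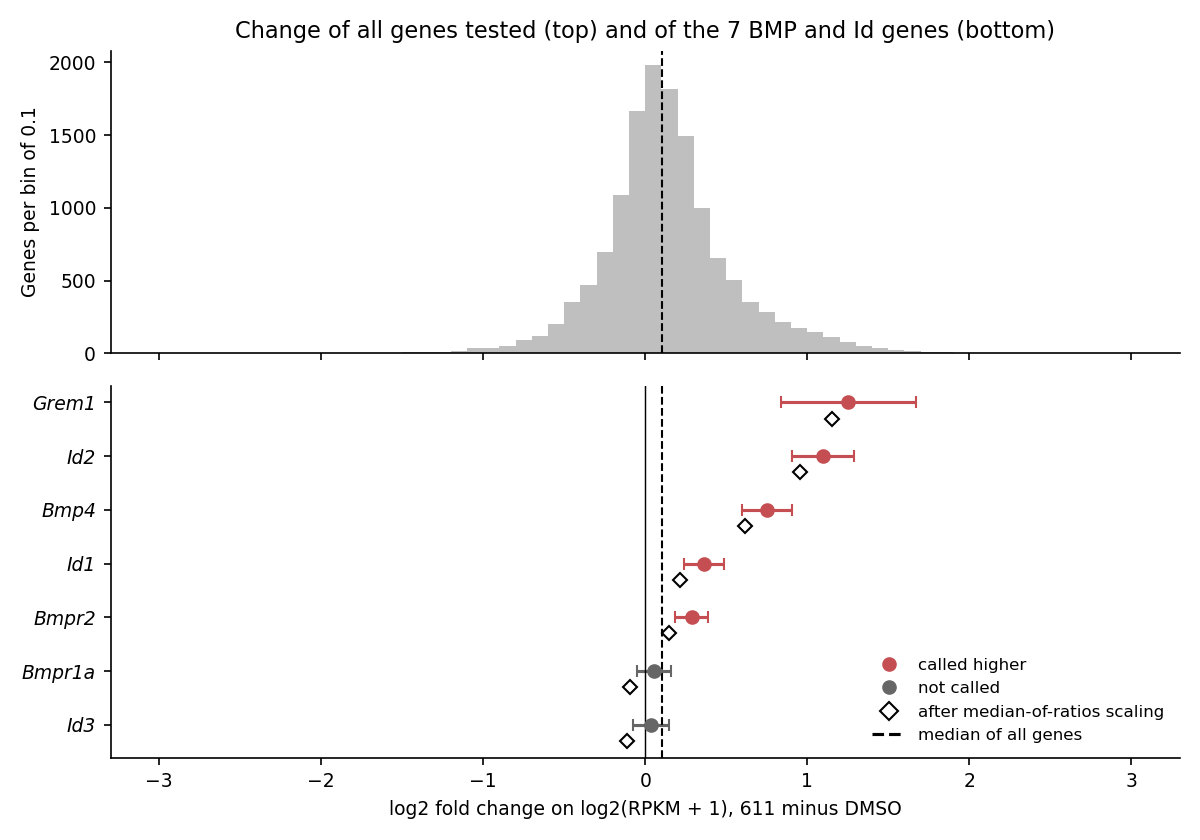
Top: number of genes by log2 fold change, 611 minus DMSO, for all 13829 genes tested, in bins of 0.1 with values beyond 3 in either direction drawn in the end bins. Bottom: the 7 genes above the filter with their 95% intervals (red, called higher; grey, not called) and, as open diamonds, the value after median-of-ratios scaling. Grem1 at 1.25 and Id2 at 1.10 lie in the right tail, while Bmpr1a and Id3 lie left of the dashed median of all genes at 0.10.

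The 3 Id genes, read as the standard targets of the pathway, did not move as a block. Id2 rose 2.24-fold, Id1 rose 1.29-fold and Id3 was not called. Id2 was at 12.9, 13.8 and 13.1 RPKM with DMSO and at 25.4, 33.1 and 30.6 with 611. The DMSO cultures were tightly grouped and the 611 cultures more spread, with no overlap. The mean went from 13.3 ± 0.452 to 29.7 ± 3.94 RPKM (log2 fold change 1.10 ± 0.08 SE, limma Benjamini-Hochberg adjusted p = 9.1e-06), and 2.55% of all genes tested had a larger log2 fold change.

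Id1 was at 69.5, 71.3 and 61.7 RPKM in the DMSO libraries and at 86.8, 89.0 and 85.3 in the 611 libraries. All 611 libraries were higher, by less than for Id2. The mean went from 67.5 ± 5.09 to 87.0 ± 1.86 RPKM (log2 fold change 0.36 ± 0.05 SE, limma Benjamini-Hochberg adjusted p = 4.5e-04), and 21.7% of all genes tested had a larger log2 fold change. Scaled by median of ratios, Id1 changed by 0.21 (limma Benjamini-Hochberg adjusted p = 0.0089).

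Id3, the most abundant of the 10 genes per length, was at 106, 97.3 and 98.9 RPKM with DMSO and at 104, 108 and 98.1 with 611. The libraries of both groups interleaved. With means of 101 ± 4.68 and 103 ± 4.95 RPKM, the log2 fold change was 0.036 with a 95% interval of -0.075 to 0.15 (limma Benjamini-Hochberg adjusted p = 0.553). After median-of-ratios scaling it turned to -0.11 (limma Benjamini-Hochberg adjusted p = 0.0993). About 4943 to 5678 reads per library lay behind Id3, so depth did not limit this interval. Id4, the remaining family member, was low, at 0.199 ± 0.125 RPKM with DMSO and 0.348 ± 0.149 with 611, and was not called (limma Benjamini-Hochberg adjusted p = 0.185). Without 611 replicate 1 it was called higher (limma Benjamini-Hochberg adjusted p = 0.0433).

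Shares within the Id family, which a single scaling factor per library does not move, were compared as well. Id2 made up 6.84%, 7.56% and 7.54% of the summed RPKM of Id1 to Id4 in the DMSO libraries and 11.7%, 14.4% and 14.3% in the 611 libraries. Id3 went the other way, from 56.2%, 53.3% and 56.9% to 48.1%, 46.8% and 45.7%. For both shares the groups did not overlap (exact permutation test, two-sided, p = 0.1 each, the smallest possible, and 0.138 adjusted over the 11 measures). Id1 held 37.1% ± 1.80 and 39.5% ± 0.778 (SD, n = 3), with overlap (exact permutation p = 0.2). Relative to Id3, Id1 went from 0.670 ± 0.0557 to 0.843 ± 0.0238 and Id2 from 0.132 ± 0.0099 to 0.288 ± 0.0381, both without overlap. Summed over the family, Id transcripts were at 174 to 189 RPKM with DMSO and 214 to 230.4 with 611.

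**Figure D3:**
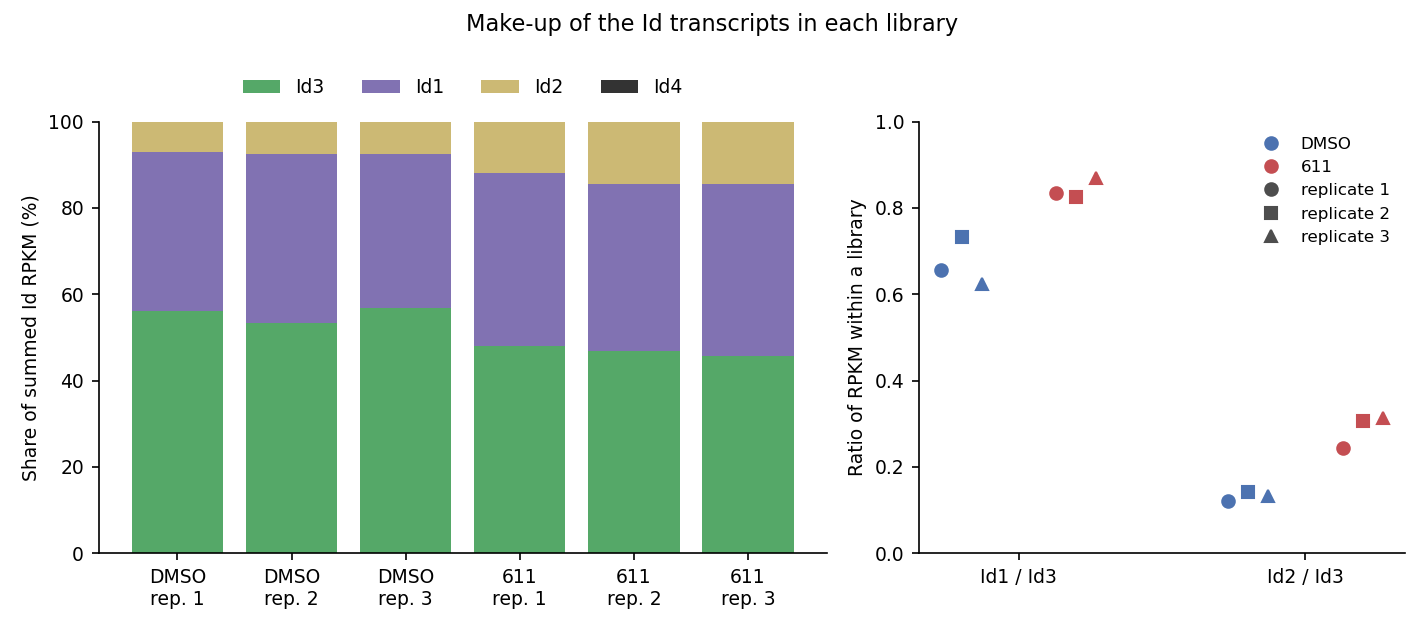
Left: share of each Id gene in the summed RPKM of Id1 to Id4, stacked to 100% for each library. Right: RPKM of Id1 and of Id2 over that of Id3 within each library (blue, DMSO; red, 611; marker shapes, replicate numbers). The Id2 band is wider and the Id3 band narrower in each of the 611 libraries, and both ratios are higher there.

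In order of level per length the DMSO libraries gave Id3, Id1, Bmpr1a, Id2, Bmpr2, Bmp4 and Grem1, with no overlap between neighbours over the 3 libraries. With 611, Id2 reached the level of Bmpr1a, 25.4 to 33.1 against 28.7 to 30.6 RPKM, and Bmp4 that of Bmpr2, 10.8 to 11.5 against 11.3 to 12.1 RPKM. These neighbours overlapped and could not be ranked. The others kept the DMSO order.

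Genes whose level followed an Id gene most closely over the 6 libraries were found by Pearson's r on log2(RPKM + 1) among 7920 genes, as a description in which the difference between the groups sets much of r. For Id2 they were Sri (r = 1.00), a calcium-binding protein gene, Ttl (0.999), a tubulin tyrosine ligase, and Smap2 (0.999), and 1922 genes had r above 0.95. For Id1 they were Rpl37 (0.999), a ribosomal protein gene, Vps18 (0.999) and Necap2 (0.998), both of vesicle traffic, and 816 genes had r above 0.95. For Id3, which was not called, only 2 genes exceeded 0.95, Irgq (0.990) and Actl6a (0.953), with Fbxo6 next at 0.904.

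The proteins between receptor and target were measured through 4 SMAD genes. All 4 were called higher, beside 41.6% of all genes. Smad1 rose 1.45-fold from 2.87 ± 0.225 to 4.17 ± 0.376 RPKM, Smad5 1.24-fold to 12.7 ± 0.469 and Smad9 1.99-fold from 0.662 ± 0.0629 to 1.31 ± 0.224 (limma Benjamini-Hochberg adjusted p between 6.4e-04 for Smad5 and 0.0012 for Smad1). Smad4, the common partner, rose 1.21-fold to 15.6 ± 0.639 (limma Benjamini-Hochberg adjusted p = 0.0012), a call lost after median-of-ratios scaling (adjusted p = 0.0745). The call for Smad1 was lost with quantile normalization (limma Benjamini-Hochberg adjusted p = 0.0860).

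Inside the cell, inhibitors gave a mixed picture, with 5 of 9 higher and 2 lower, beside 41.6% and 17.7% of all genes. Scaled by median of ratios, 3 were higher and 2 lower, beside 28.5% and 28.6% of all genes. Their median log2 fold change was 0.16, beside 0.10 over all genes, and came to 0.02 once scaled. With quantile normalization 2 inhibitors were higher and 3 lower, beside 3652 and 4282 of all 13829 genes. Removing a trend on transcript length, GC content and level also gave 2 and 3, beside 3682 and 4203. The added fall in each was Skil, named here after its values were seen. Smad6, the inhibitory SMAD most tied to BMP signals and itself a target, rose 1.20-fold from 9.10 ± 0.905 to 10.9 ± 0.440 RPKM (limma Benjamini-Hochberg adjusted p = 0.0153). That call was lost after median-of-ratios scaling (adjusted p = 0.220), with quantile normalization (adjusted p = 0.288), with a trend on transcript length, GC content and level removed, a setting chosen after seeing the data (adjusted p = 0.515), and without DMSO replicate 1 or 611 replicate 2 (adjusted p = 0.0535 and 0.0510). Smad7, the other inhibitory SMAD, rose 1.53-fold from 1.03 ± 0.0306 to 1.58 ± 0.141 (adjusted p = 0.0014), a call lost with quantile normalization and with that same trend removed (limma Benjamini-Hochberg adjusted p = 0.114 and 0.102). Ski, a corepressor that binds SMADs, rose 1.59-fold to 17.1 ± 1.15, and Fkbp1a, which holds type I receptors inactive, rose 1.20-fold to 96.9 ± 1.34. In the other direction Tob1, an antiproliferative protein that also restrains BMP SMADs, fell 1.50-fold from 169 ± 3.10 to 113 ± 3.59, and Smurf1, a ubiquitin ligase for BMP SMADs, fell 1.20-fold from 20.0 ± 0.809 to 16.6 ± 0.936. Those falls stayed called after scaling.

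Other targets rose in part. Of 10 genes 8 could be tested, 5 rose and 0 fell, beside 41.6% of all genes called higher. The same 5 were called after median-of-ratios scaling, beside 28.5% of all genes. With quantile normalization the calls of Dlx5 and Tbx3 were lost. Runx2, the transcription factor that starts bone formation, rose 2.44-fold from 2.15 ± 0.106 to 5.25 ± 0.313 RPKM, Msx1, a homeobox gene, rose 2.02-fold to 3.21 ± 0.494 and Atoh8, a helix-loop-helix factor, rose 1.58-fold to 10.9 ± 0.263 (limma Benjamini-Hochberg adjusted p between 3.3e-06 for Runx2 and 3.4e-04 for Msx1). Later bone genes were named after their values were seen. Sp7 was below the filter, and of 6 osteoblast markers 2 could be tested, with Alpl lower, from 1.02 ± 0.0617 to 0.498 ± 0.0859 RPKM. Hey1 and Msx2 were among the 3 targets not called, each with less than 1 RPKM in both groups.

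The E proteins that Id factors bind rose as well. Tcf4 rose 2.09-fold from 6.44 ± 0.375 to 13.4 ± 1.30 RPKM, Tcf3 rose 1.64-fold from 10.4 ± 1.48 to 17.1 ± 1.35 and Tcf12 rose 1.21-fold from 12.8 ± 0.263 to 15.5 ± 0.437 (limma Benjamini-Hochberg adjusted p between 9.0e-06 for Tcf4 and 7.7e-04 for Tcf12). All 3 stayed called after median-of-ratios scaling, with 41.6% of all genes called higher before it and 28.5% after it.

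The 66 other pathway genes were chosen with earlier results of these data known and include the 3 E protein genes. Of the 66, 44 could be tested. Of these 33 rose, 75% beside 41.6% of all genes, and 3 fell, beside 17.7% of all genes. Their median log2 fold change was 0.36 beside 0.10 over all genes. Scaling by median of ratios gave 28 higher (63.6% beside 28.5% of all genes) and 4 lower (beside 28.6%). With quantile normalization 23 were higher (52.3%) and 6 lower, beside 3652 and 4282 of all 13829 genes. With the replicate number as a block 33 were higher and 4 lower, the added call being Acvr2a.

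**Figure D4:**
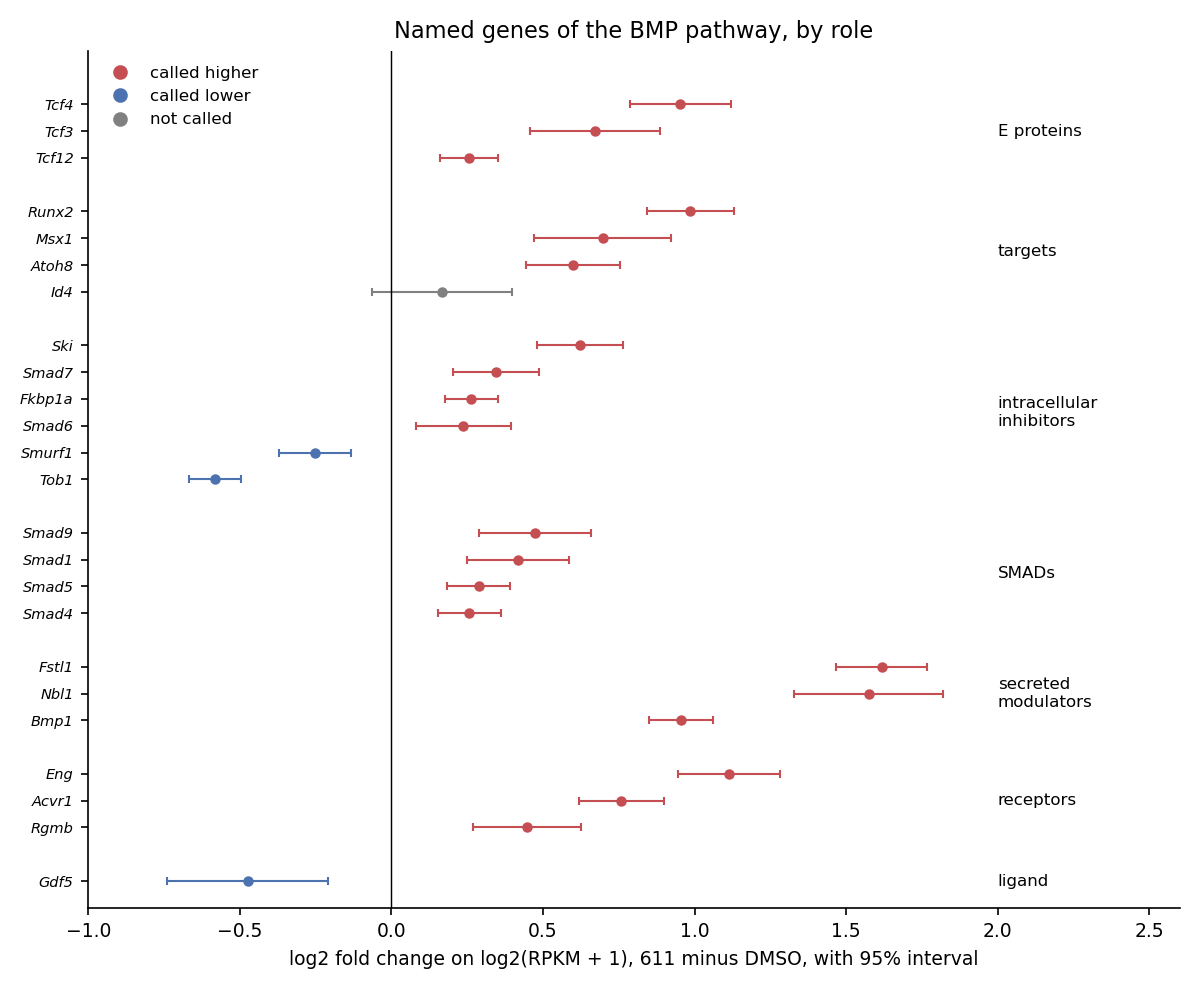
log2 fold change with 95% interval, 611 minus DMSO on log2(RPKM + 1), of the 24 tested pathway genes, beyond the 10, that the naming rule picked, grouped by role (red, called higher; blue, called lower; grey, not called). Fstl1 at 1.62, Nbl1 at 1.57 and Eng at 1.11 lie farthest right, and Tob1 at -0.58, Gdf5 at -0.47 and Smurf1 at -0.25 are the 3 called lower.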

How the data were processed

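Per the labels' protocols, RNA came from TRIzol extraction and went through a strand-marking mRNA library kit. For each library the authors deposited RPKM values of 28430 RefSeq transcripts. TopHat2 2.0.12, TopHat, SAMtools and build mm9 are named, per the submitters' processing notes. The sources used here name neither the program behind the RPKM values nor its use of strand, and the unit itself was read from the values.

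Symbols came from a RefSeq table of GRCm38.p6, used for names, and 27789 transcripts matched. Of the gene list entries 1, Cd68, did not match. Low values are whole multiples of what 1 read is worth, which gave library totals. Read numbers of single genes use GENCODE M21 transcript lengths and are approximate.

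Genes with at least 0.1 RPKM in at least 3 libraries were tested with limma 3.58.1 (R 4.3.3) with trend on log2(RPKM + 1), group as the only term, p-values adjusted by Benjamini-Hochberg, threshold 0.05. The code was tested on simulated data. Within-library ratios used exact permutation tests (scipy 1.17.1). Other pathway genes were named by rule: 10 given genes (Id4, Smad1, Smad4, Smad5, Smad6, Smad7, Nog, Bmpr1b, Acvr1 and Kdm1a), and up to 3 per list and direction with the largest called change and at least 1 RPKM in the higher group. For likeness a mean of at least 5 RPKM was required. The 10 genes and all lists were chosen with earlier results of these data known. Besides, 14 other settings were chosen with the design and 1 after seeing the data.

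Deviations from the group means went together in libraries that share a replicate number (correlations across 13829 genes of 0.296, 0.298 and 0.177 for replicates 1, 2 and 3). The numbers were used to pair the cultures in the replicate block alternative only, which was among the 14 settings chosen with the design. The main fit and the exact permutation tests did not use the pairing. The smallest permutation p of 0.1 holds for libraries shuffled without regard to replicate number. Evidence for a pairing comes from the data alone, since the labels give only the number. A further result is not reported here.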

Additional observations from a re-analysis of the deposited data

How the results depend on the processing

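Over 15 alternatives the calls of Bmp4, Bmpr2, Grem1, Id1 and Id2 held, with 5 of the 10 genes higher and 0 lower in each, the replicate block included. With the replicate block 6169 of all genes were higher and 2700 lower, and it changed no call of the 10 genes and, of the other pathway genes, that of Acvr2a. Ratios and shares within a library were not computed after quantile normalization or trend removal, which can move them. Log2 fold changes ran from 0.58 to 0.83 for Bmp4, 0.14 to 0.31 for Bmpr2, 1.02 to 1.74 for Grem1, 0.21 to 0.40 for Id1 and 0.95 to 1.20 for Id2, and the highest limma adjusted p among them was 0.0275, for Bmpr2 with quantile normalization. Bmpr1a and Id3 were called in none, and their signs turned: after median-of-ratios scaling to -0.091 and -0.11, and for Bmpr1a to -0.014 after a trend on transcript length, GC content and level was removed, an alternative chosen after seeing the data. The cause was not tested. Scaling moved the count of all genes most, with 3959 genes lower after median-of-ratios scaling, 3652 higher and 4282 lower with quantile normalization, and 3682 higher and 4203 lower without the trend, against 5758 and 2451. Other pathway genes called lower numbered 6 with quantile normalization and 6 without the trend, against 3. Depth limits Bmp2, Bmp7, Bmp8b, Bmpr1b and Nog, at or under about 3 reads in most libraries.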

Other observations

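Markers of cartilage, a fate that BMPs also promote, were higher in part. Of 5 genes 4 could be tested and 3 rose, beside 41.6% of all genes called higher. Sox9 went from 8.63 ± 0.453 to 18.9 ± 0.920 RPKM and Col2a1 from 1.56 ± 0.0592 to 5.22 ± 0.590 (limma Benjamini-Hochberg adjusted p = 1.2e-06 and 2.5e-06). Acan was listed at 0 in all 6 libraries. Skeletal muscle markers, which E proteins switch on together with MyoD, were near absent, with Myod1, Myog and Ckm listed at 0 throughout.

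A measure chosen after the values were seen set Id1, Id2 and Id3 against the E proteins Tcf3, Tcf4 and Tcf12 they bind. The summed Id RPKM over the summed E protein RPKM was 6.45, 5.87 and 6.05 in DMSO replicates 1, 2 and 3 and 5.03, 4.77 and 4.56 in 611 replicates 1, 2 and 3. Although Id1 and Id2 rose, every 611 library was below every DMSO library, with means of 6.12 ± 0.298 and 4.79 ± 0.236 (SD, n = 3). The ratio is a description of transcripts and was not tested.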
